A study of Rattus norvegicus with 9 samples.

Results

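The tissue described here had grown inside an empty tube, called Hollow, that bridged a gap of 2 cm in the sciatic nerve of rats and was taken at day 14 after implantation. It is represented by 3 of the 9 libraries of the study, all 3 chosen by their group label, and these were read at their absolute level, with no comparison with the other groups. The study's other 6 libraries, 3 each from tubes labelled AFMC and AFMC-AA-SP, were not used here. The Hollow tube carried no filling and no added agent per the labels, and the labels give no strain, sex or age of the rats and do not say how many animals stand behind a library. How much of the spread between the 3 libraries is technical therefore cannot be told. No difference among them was tested, because they form 1 group. A level is given as FPKM, the fragments counted for a gene, divided by its length and by the total counted in the library, and ± is the SD over the 3 Hollow libraries (n = 3) throughout. Where a member of a gene list is called the most variable, only members at a mean of 5 FPKM or more are compared. The measure is the SD divided by the mean.

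After a peripheral nerve is cut, the axons beyond the injury break down, Schwann cells, the glia that wrap peripheral axons, shed their myelin and take up a repair state, and macrophages enter and clear the debris. A tube joined to both stumps fills early with fluid and a fibrin cable, along which fibroblasts, perineurial cells, vessels and Schwann cells enter, with axons following them from the near stump. The cell bodies of these axons lie in the spinal cord and the dorsal root ganglia, outside the tube, so transcripts that stay in the cell body are not sampled with the nerve.

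Promoters of members of the lists with the most variable genes are shown first, to give their sequence beside the levels described further on, and no link of a motif to the spread was tested. They run from 250 bases before to 50 bases after the annotated start, from the RefSeq table of build GRCr8, read along the strand of the gene. The skeletal muscle list held the most members among the genes that varied between the 3 libraries, and Acta1, Mylpf and Tnnc2 are its 3 highest members. Acta1, skeletal muscle actin, is at chr19:68784145-68784444 on the minus strand. Tnnc2, the calcium-binding troponin of fast muscle fibres, is at chr3:173935290-173935589 on the minus strand. Capitals mark the E-box CANNTG (searched on both strands) in both, and in Acta1 also the TATA box TATAAA (gene strand only) and the CArG box (both strands), the site known to bind serum response factor.
Acta1: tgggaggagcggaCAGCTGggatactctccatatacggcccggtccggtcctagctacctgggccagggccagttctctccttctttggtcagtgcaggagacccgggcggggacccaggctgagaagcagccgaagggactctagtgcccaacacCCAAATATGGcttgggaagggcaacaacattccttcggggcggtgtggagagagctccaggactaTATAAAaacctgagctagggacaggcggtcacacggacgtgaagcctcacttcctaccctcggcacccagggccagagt
Tnnc2: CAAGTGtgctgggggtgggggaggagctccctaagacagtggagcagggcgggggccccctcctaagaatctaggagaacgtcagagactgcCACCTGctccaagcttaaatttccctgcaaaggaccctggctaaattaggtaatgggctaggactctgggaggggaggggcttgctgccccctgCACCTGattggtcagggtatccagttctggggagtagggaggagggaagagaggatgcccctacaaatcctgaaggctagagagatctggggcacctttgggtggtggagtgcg
In Acta1 the TATA box began at -29, the CArG box at -94 and the E-box at -237 from the start site, and in Tnnc2 the E-boxes began at -64, -158 and -250. Of the 29 measured members of the muscle list, 24 had a promoter in the table. An E-box was in 20 of the 24 and in 72.1% of all 33465 promoters, a TATA box in 7 of the 24 and in 8.80% of all, a CArG box in 3 of the 24 and in 1.64% of all, and a MEF2 site (both strands) in 2 of the 24 and in 3.29% of all.

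The other list with several varying members was the interferon-stimulated one. Promoters of its variable members are shown where the table held them, a choice made after the values were seen. Irf7, a transcription factor of the interferon response, is at chr1:205799974-205800273 on the minus strand, and Ifit3, an antiviral protein with tetratricopeptide repeats, at chr1:241527076-241527375 on the plus strand. Rsad2, the antiviral enzyme viperin, is at chr6:48788071-48788370 on the minus strand, and Mx1, an antiviral GTPase, at chr11:50294557-50294856 on the minus strand. Capitals mark the core of the interferon-stimulated response element, which is GAAA, any 2 bases and GAAA again, on either strand, and in Mx1 the TATA box.
Irf7: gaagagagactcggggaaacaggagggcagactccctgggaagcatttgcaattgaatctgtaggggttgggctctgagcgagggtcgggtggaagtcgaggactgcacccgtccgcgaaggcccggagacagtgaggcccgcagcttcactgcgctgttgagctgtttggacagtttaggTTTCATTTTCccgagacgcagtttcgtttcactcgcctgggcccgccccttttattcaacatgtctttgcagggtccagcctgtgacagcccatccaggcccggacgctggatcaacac
Ifit3: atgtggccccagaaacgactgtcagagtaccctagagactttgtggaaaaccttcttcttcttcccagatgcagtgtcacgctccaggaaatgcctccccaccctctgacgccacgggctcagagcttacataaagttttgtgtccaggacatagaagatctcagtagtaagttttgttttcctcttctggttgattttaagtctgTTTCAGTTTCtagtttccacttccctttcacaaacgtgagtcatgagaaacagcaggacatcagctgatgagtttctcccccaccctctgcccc
Rsad2: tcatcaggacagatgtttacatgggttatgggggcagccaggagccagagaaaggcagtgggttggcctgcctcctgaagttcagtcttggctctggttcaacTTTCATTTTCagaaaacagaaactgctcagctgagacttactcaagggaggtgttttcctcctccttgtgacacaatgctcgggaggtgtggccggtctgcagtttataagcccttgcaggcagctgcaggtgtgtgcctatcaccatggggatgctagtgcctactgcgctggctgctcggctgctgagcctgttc
Mx1: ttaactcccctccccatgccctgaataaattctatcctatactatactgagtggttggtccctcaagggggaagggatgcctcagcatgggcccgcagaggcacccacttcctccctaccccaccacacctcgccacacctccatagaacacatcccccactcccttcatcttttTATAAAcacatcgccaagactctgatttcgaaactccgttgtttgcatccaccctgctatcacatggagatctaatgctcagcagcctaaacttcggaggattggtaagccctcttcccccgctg
The element began at -69 in Irf7, -44 in Ifit3 and -147 in Rsad2, and no match was in the Mx1 window. A match was in 11 of the 14 interferon-list promoters held by the table (78.6%) and in 3.92% of all promoters. These matches describe letters and do not show that a factor binds.

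The 3 libraries held 22123294, 18713061 and 22357385 counts in replicates 1, 2 and 3. Of 21486 genes measured, 12515 were at 1 FPKM or more in all 3 libraries, 12107 of them protein coding and 408 lncRNA, and 1211 had no count in any. The means over the 3 libraries reached 1 FPKM for 13055 genes, 5 FPKM for 8894 and 10 FPKM for 6029. Across genes, which are not independent replicates, log2 levels of each pair of libraries had a Pearson correlation of 0.967 to 0.977. The counts of each pair nevertheless differed by more than counting noise, with a chi-square of 17.5 to 28.6 per degree of freedom, so the 3 were kept as separate libraries.

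Cells of a nerve, of connective tissue and of the macrophage lineage were all marked. Of the Schwann cell markers, the transcription factor Sox10 was at 28.4, 27.4 and 27.8 FPKM in replicates 1, 2 and 3, and the neuregulin receptor Erbb3 at 31.5, 31.3 and 30.2 FPKM. Both were nearly level across the libraries. The macrophage marker Cd68, a lysosomal membrane protein, was at 363 ± 61.4 FPKM and the colony-stimulating factor receptor Csf1r at 127 ± 15.6 FPKM. The fibroblast markers Pdgfra, a receptor for platelet-derived growth factor, and Dcn, the proteoglycan decorin, were at 45.7 ± 1.66 and 655 ± 50.3 FPKM. Endothelium was marked by the junction proteins Pecam1 at 51.1 ± 8.91 FPKM and Cdh5 at 47.5 ± 11.8 FPKM, and pericytes by the signalling regulator Rgs5 at 154 ± 36.9 FPKM.

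Some markers of other cells were low, while others of the same cells were not. The neuronal splicing factor Rbfox3 was at 0.132 ± 0.0828 FPKM, the synaptic protein Snap25 at 0.168 ± 0.0824 FPKM and the neuronal RNA-binding protein Elavl4 had 1 count in replicate 2 and none in the others. Krt5, a keratin of basal skin cells, had 0 counts in each library, which allows up to 3 counts, or 1.60e-05% of the counts of the shallowest library. The granule enzymes of immature neutrophils, Mpo and Elane, were at 0.570 ± 0.0528 and 0.208 ± 0.0804 FPKM, whereas the neutrophil markers S100a8 and Csf3r were at 9.90 ± 1.26 and 6.63 ± 2.40 FPKM. The T cell receptor chain Cd3e was at 1.76 ± 0.470 FPKM and the B cell membrane protein Ms4a1 at 0.654 ± 0.0856 FPKM, but Jchain of plasma cells was at 25.98 FPKM on average. In bulk RNA, a low level from few cells and a low level per cell cannot be told apart. Skeletal muscle markers were present in every library and are described with the spread between libraries. The fat marker Adipoq, a hormone of adipocytes, was at 12.6 ± 1.83 FPKM.

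**Figure D1:**
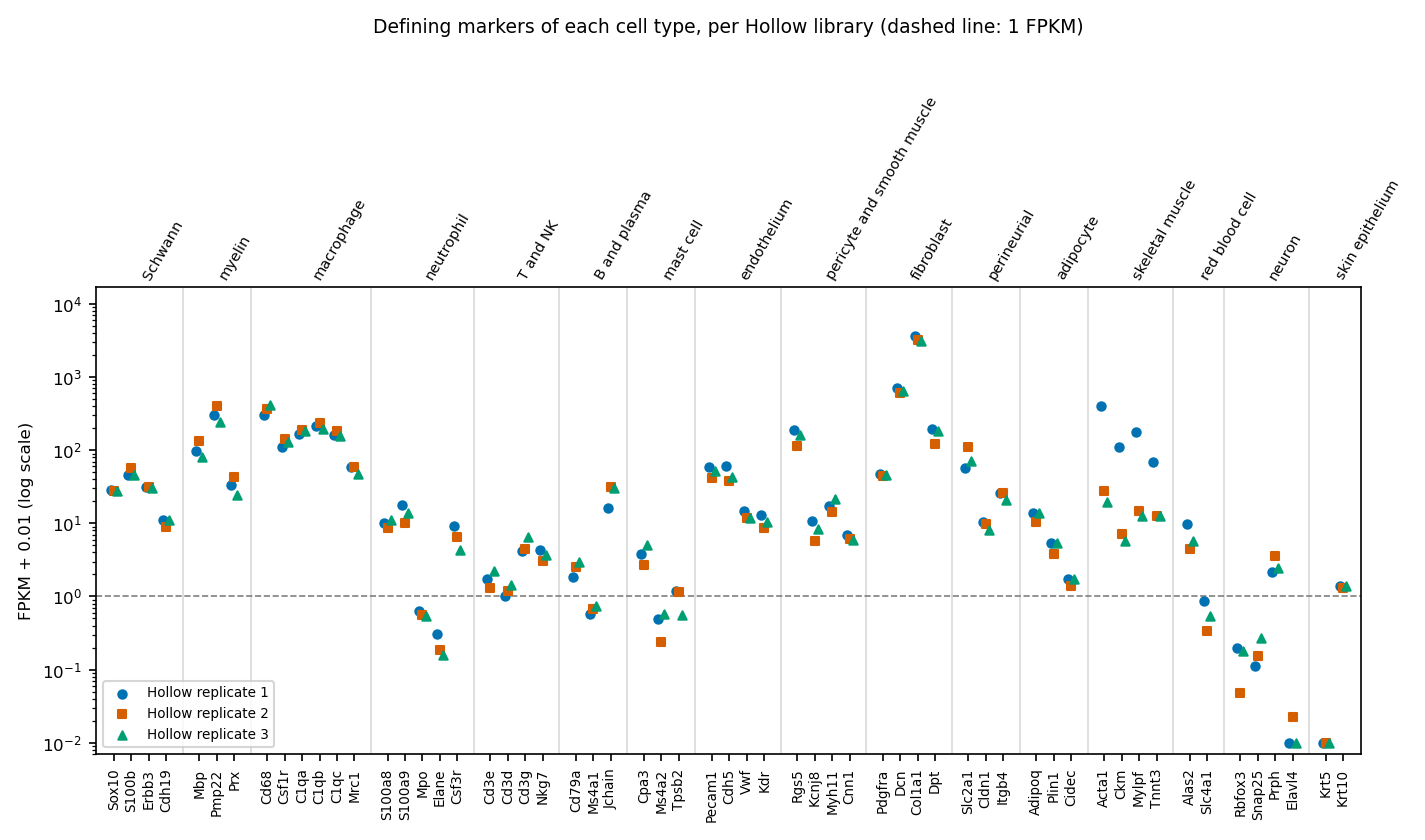
Levels of the reported defining markers of 16 cell types in the 3 Hollow libraries, as FPKM + 0.01 on a log axis, with 1 point per library and a dashed line at 1 FPKM. Schwann, macrophage, fibroblast and vessel markers lie far above the line, neuronal markers other than Prph lie below it, and the 4 skeletal muscle markers are highest in replicate 1.

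The most abundant transcripts came from matrix, iron storage, the cytoskeleton and the lysosome. Leaving out ribosomal proteins and mitochondrially encoded genes, the highest gene was Col3a1, the chain of type III collagen (chromosome 9, 47374593 to 47410547 in the deposited table), at 4641, 4054 and 3864 FPKM in replicates 1, 2 and 3. Spp1, the secreted phosphoprotein osteopontin (chromosome 14, 5308885 to 5315162), followed at 2698, 4742 and 3332 FPKM. Col1a1, a chain of type I collagen, was at 3654, 3250 and 3125 FPKM. The collagens were highest in replicate 1 and Spp1 in replicate 2, where it was above every collagen chain. The next were Actb, cytoplasmic actin, at 2976 ± 165 FPKM, Col1a2, the partner chain of type I collagen, at 2954 ± 365 FPKM, and Fth1, the ferritin heavy chain, at 2903 ± 254 FPKM. Apoe, a lipid carrier, stood at 2634 ± 288 FPKM, Sparc, a matrix glycoprotein that binds collagen, at 2491 ± 248 FPKM, Vim, an intermediate filament protein, at 2396 ± 209 FPKM and Ctsb, a lysosomal protease, at 1906 ± 122 FPKM. The ranges of neighbours in this order overlapped except between Vim and Ctsb, so the order above Ctsb is not firm. The highest gene of all was the mitochondrially encoded Mt-co1, a subunit of cytochrome c oxidase, at 8867, 10228 and 9038 FPKM. The 13 mitochondrially encoded genes together held 11.4% ± 0.614 of the summed FPKM, 117 ribosomal protein genes 4.84% ± 0.278, the 10 highest genes of all 12.9% ± 0.766 and the 100 highest 32.5% ± 0.761.

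Matrix genes held the largest share among the 6 classes built from gene lists, 8.82% ± 0.605 of the summed FPKM, with 107 of 114 measured members at a mean of 1 FPKM or more. Macrophage and other immune lists together held 3.17% ± 0.245, secreted factors 1.83% ± 0.269, glia 0.630% ± 0.0977, vessel 0.471% ± 0.0684 and listed transcription factors 0.403% ± 0.0186. The classes are unequal in size and share some genes, Spp1 among them, so the shares do not add up. Taken as a share of counts, which weights long genes, several values moved by more than 1.5 times. Matrix then held 13.9%, fibrillar collagens 5.94% in place of 3.09%, other collagens 1.78% in place of 0.753%, basement membrane 0.871% in place of 0.348% and guidance cues 0.107% in place of 0.0550%. Chemokines and cytokines held 0.784% in place of 1.31%, interferon-stimulated genes 0.115% in place of 0.225%, B and plasma genes 0.0193% in place of 0.0308%, neuron and axon genes 0.0114% in place of 0.0194% and neutrophil genes 0.00637% in place of 0.0136%. By class, the matrix share was 9.41%, 8.84% and 8.20% in replicates 1, 2 and 3, and the immune share 2.93%, 3.16% and 3.42%. Replicate 1 was highest and replicate 3 lowest for matrix, and the reverse held for immune.

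**Figure D2:**
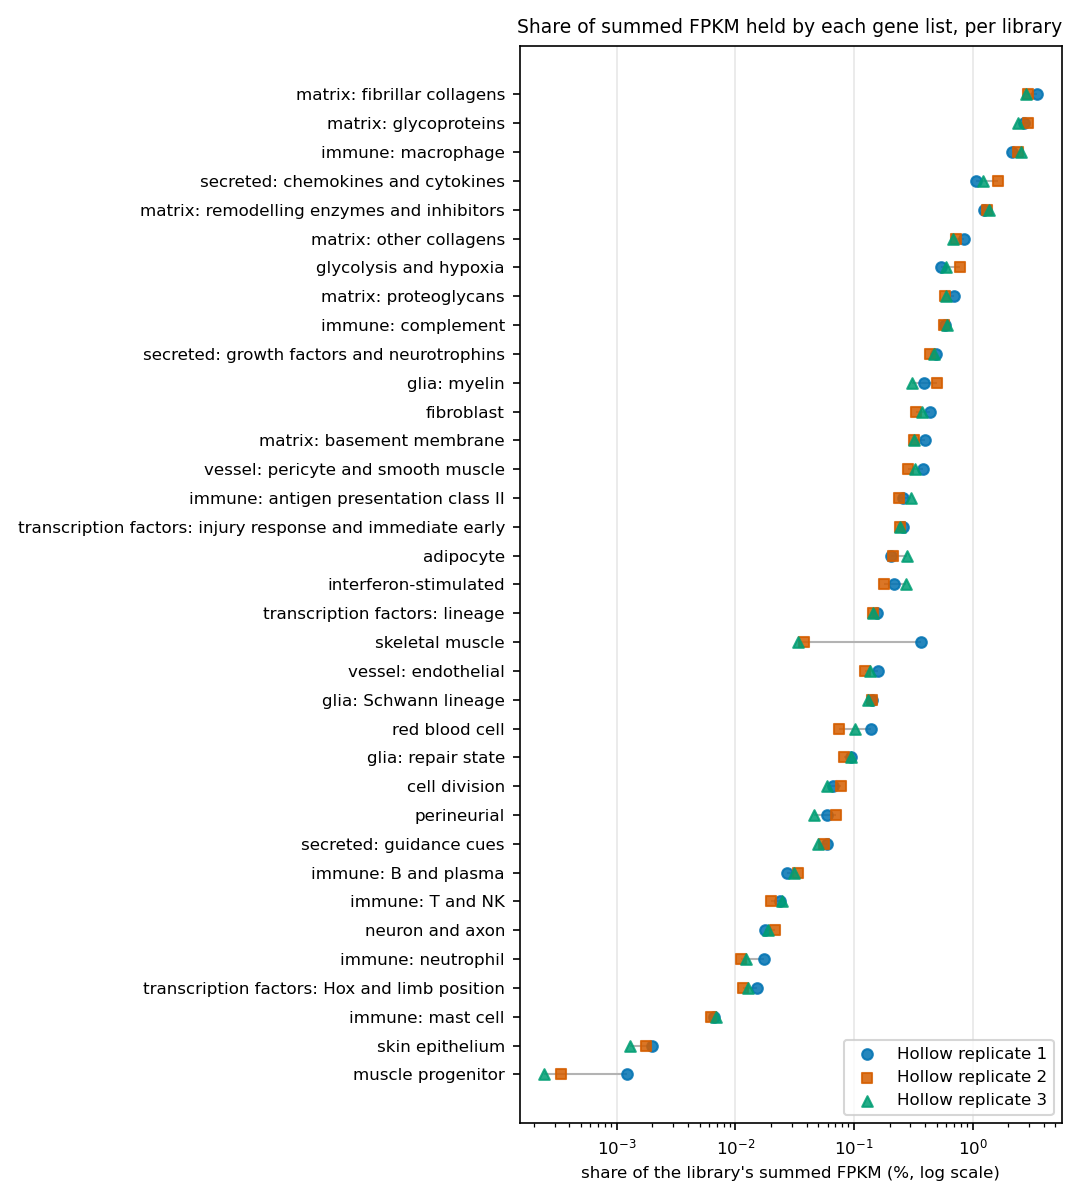
Share of each library's summed FPKM held by 35 gene lists, in percent on a log axis, with 1 point per Hollow library and a grey line over their range. Fibrillar collagens are at the top with 3.09%, and the skeletal muscle list has the longest range among lists above 0.01%, from 0.0338% to 0.372%.

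Fibrillar collagens, the chains that assemble into tensile fibres, held 3.09% ± 0.383 from 8 genes. After Col3a1, Col1a1 and Col1a2 there was a wide step down to Col5a2, Col5a1 and Col5a3, chains of the type V collagen that starts fibre assembly, at 371 ± 46.4, 293 ± 46.9 and 235 ± 53.9 FPKM. Of the 7 at a mean of 5 FPKM or more, Col5a3 was the most variable at 239, 287 and 179 FPKM. It was 1 of 2 chains highest in replicate 2, while 6 were highest in replicate 1. Col2a1, the collagen of cartilage, was at 3.07 ± 1.06 FPKM. Levels of paired chains moved closely together, in ratios chosen after the values were seen. Col1a1 stood to Col1a2 as 1.14 ± 0.0481, and Col4a1 to Col4a2, the partner chains of basement membrane collagen, as 1.67 ± 0.00623. Among the other collagens the chains of beaded type VI collagen led, with Col6a1 at 888 ± 49.2, Col6a2 at 672 ± 34.4 and Col6a3 at 385 ± 48.3 FPKM, each with a range clear of the next. The most variable of that list, Col12a1, a collagen on the surface of fibres, was at 165, 124 and 109 FPKM.

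Basement membrane genes, for the sheets that underlie Schwann cells and vessels, held 0.348% ± 0.0445. Col4a1 was at 477, 391 and 400 FPKM, Col4a2 at 284, 234 and 239 FPKM and Nid1, nidogen, which links collagen to laminin, at 252, 197 and 198 FPKM. All 3 were highest in replicate 1. Among laminin alpha chains, Lama4 at 77.2 ± 7.14 FPKM was above Lama2, the main alpha chain of Schwann cell basement membrane, at 21.2 ± 2.49 FPKM, and their ratio was 3.65 ± 0.0936. Lama5 at 9.01 ± 1.89 FPKM was the most variable member, and Lama1 at 0.0567 ± 0.00501 FPKM the lowest. Lamc1, the shared gamma chain, at 94.2 ± 8.70 FPKM was above Lamb1 and Lamb2 at 68.4 ± 6.17 and 55.7 ± 5.31 FPKM. Ranges of neighbours did not overlap in 13 of 19 pairs of this list, more by share than in any other of the 35. The same count was 7 of 65 for growth factors, 6 of 40 for lineage transcription factors, 4 of 23 for endothelial genes, 1 of 23 for cell division and 0 of 28 for skeletal muscle, so the order within those lists is mostly not firm.

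Matrix glycoproteins held 2.69% ± 0.263, led by Spp1, Sparc and Fn1, fibronectin, the last at 1301, 1411 and 966 FPKM. Fn1 was lowest in replicate 3. Postn, periostin, was at 761 ± 84.9 FPKM and Tnc, tenascin C, which appears in healing tissue, at 189 ± 31.0 FPKM. Eln, elastin, varied most at 39.7, 25.4 and 58.0 FPKM and was highest in replicate 3. Proteoglycans held 0.630% ± 0.0578, with the small collagen-binding Bgn, Dcn and Lum at 724 ± 39.7, 655 ± 50.3 and 258 ± 29.7 FPKM. Among the large chondroitin sulphate proteoglycans, versican (Vcan) was at 45.1 ± 8.70 FPKM and Cspg4 at 14.7 ± 0.857 FPKM. Aggrecan (Acan), the most variable of the list at a mean of 5 FPKM or more, was at 8.36, 4.71 and 4.62 FPKM. Ncan, neurocan, of the central nervous system, was at 0.00917 ± 0.00866 FPKM.

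Enzymes that cut or cross-link matrix held 1.31% ± 0.0622. Mmp12, the macrophage elastase, led at 1141, 1316 and 1744 FPKM, followed by Ctsk, the collagen-cutting cathepsin K, at 689, 946 and 995 FPKM. Both were lowest in replicate 1 and highest in replicate 3, against the order of the collagens. Mmp14, a membrane-bound metalloproteinase, was at 517 ± 60.6 FPKM and its substrate Mmp2, a gelatinase, at 414 ± 68.6 FPKM. Timp1, a metalloproteinase inhibitor, was at 318, 494 and 271 FPKM and highest in replicate 2. Mmp13, a collagenase, was the most variable at a mean of 5 FPKM or more, at 52.4, 34.3 and 77.2 FPKM. Lox, which cross-links collagen and elastin, was at 121, 154 and 80.5 FPKM, also highest in replicate 2. Fibroblast genes outside the matrix were led by Acta2, the smooth muscle actin of myofibroblasts and vessel walls, at 269 ± 38.3 FPKM, Dpt, dermatopontin, at 193, 120 and 182 FPKM, and Clec3b, tetranectin, at 131 ± 24.6 FPKM. Dpt was the most variable of these and lowest in replicate 2.

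Glial genes divided into a Schwann lineage list that was level among the libraries and a myelin list that was not. The lineage list held 0.138% ± 0.00674 of the summed FPKM, with shares of 0.144%, 0.141% and 0.131%. It was led by Cadm4, an adhesion protein of the Schwann cell surface that faces the axon, at 130 ± 14.5 FPKM, Ngfr, the low-affinity neurotrophin receptor, at 70.2, 65.1 and 74.9 FPKM, and the calcium-binding protein S100b at 49.3 ± 6.03 FPKM. Of the other markers, the cadherin Cdh19 was at 10.4 ± 1.39 FPKM. Cdh2, N-cadherin, was the most variable of those at a mean of 5 FPKM or more, at 11.8, 7.90 and 8.77 FPKM. Fabp7, a lipid-binding protein of glial precursors, was at 0.0776 ± 0.0629 FPKM.

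The myelin list held 0.393%, 0.504% and 0.307% in replicates 1, 2 and 3. Pmp22, a tetraspan myelin protein, was at 305, 398 and 245 FPKM, and Mbp, myelin basic protein, at 96.8, 135 and 79.8 FPKM. Both were highest in replicate 2 and lowest in replicate 3. The same held for Prx, the periaxin scaffold, at 33.2, 43.2 and 24.5 FPKM and for Ncmap, a non-compact myelin protein and the most variable member, at 25.5, 31.5 and 14.7 FPKM. Of 17 myelin members at a mean of 1 FPKM or more, 16 were highest in replicate 2, against 28.0% of all genes. The exception was Cnp, an enzyme of the myelin sheath, at 116, 118 and 124 FPKM. Sox10 did not follow this order. Gjb1, the connexin of non-compact myelin, was at 0.279, 0.454 and 0.150 FPKM.

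Repair state genes were present at lower levels, 0.0906% ± 0.00721 in all. Atf3, a transcription factor induced by nerve injury, was at 107 ± 15.8 FPKM, Mcam, an adhesion protein that vessels also carry, at 98.3 ± 12.1 FPKM and Jun, the factor that drives the repair state, at 46.1, 38.7 and 45.5 FPKM. Jun was lowest in replicate 2, the library with the highest myelin share. Of the members at a mean of 5 FPKM or more, Gap43, a growth-associated protein, varied most at 22.5, 13.3 and 19.4 FPKM. It too was lowest in replicate 2. Secreted signals of this state were low, with the hedgehog ligand Shh at 2.89 ± 1.46 FPKM and the neurotrophic factors Gdnf at 2.35 ± 0.601 and Bdnf at 0.887 ± 0.0966 FPKM.

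Perineurial genes, for the cell layers that enclose nerve bundles, were led by Slc2a1, a glucose transporter, at 56.4, 110 and 70.9 FPKM, Msln, mesothelin, at 50.2, 60.1 and 21.9 FPKM, and Itgb4, an integrin, at 25.6, 25.9 and 21.2 FPKM. Msln was the most variable member and lowest in replicate 3. Cldn1, a tight junction protein, was at 9.49 ± 1.15 FPKM, and Dhh, the hedgehog ligand that Schwann cells send to perineurial cells, at 11.4 ± 0.768 FPKM. Neuron and axon genes held 0.0194% ± 0.00192, with 6 of 18 measured members at 1 FPKM or more. The highest were Uchl1, a deubiquitinating enzyme, at 32.5, 31.8 and 32.3 FPKM, Stmn2, a tubulin-binding growth cone protein, at 12.3, 13.9 and 17.4 FPKM and Tubb3, a neuronal tubulin, at 13.6, 13.0 and 11.1 FPKM. Nefl, the neurofilament light chain, was at 0.312, 11.4 and 3.70 FPKM, and Nefm, the middle chain, at 0.251, 4.61 and 1.65 FPKM. Both neurofilament chains were highest in replicate 2 and lowest in replicate 1. Prph, peripherin of peripheral neurons, was at 2.15, 3.55 and 2.47 FPKM.

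The macrophage list led the immune class with 2.39% ± 0.209 of the summed FPKM, and 22 of 23 measured members were at 1 FPKM or more. This is the share of the listed genes, and which cells made their transcripts was not tested. Apoe led at 2565, 2386 and 2950 FPKM, followed by Gpnmb, a membrane glycoprotein of lipid-laden macrophages, at 1586, 1631 and 2081 FPKM and Lyz2, lysozyme, at 1084, 2124 and 1682 FPKM. Apoe and Gpnmb were highest in replicate 3 and Lyz2 in replicate 2. The complement chains C1qa, C1qb and C1qc, which macrophages make, were at 180 ± 13.2, 217 ± 21.2 and 169 ± 14.3 FPKM, and the mannose receptor Mrc1 at 54.8 ± 6.87 FPKM. Arg1, arginase, stood at 92.7, 71.2 and 67.3 FPKM and Nos2, inducible nitric oxide synthase and the most variable member, at 17.0, 16.2 and 7.09 FPKM. Arg1 was above Nos2 in each library, by 5.45, 4.38 and 9.48 times, a pair chosen after its values were seen. Marco, a scavenger receptor, had a mean of 0.00873 FPKM.

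Complement genes held 0.590% ± 0.0209, with Serping1, the C1 inhibitor, at 401 ± 73.3 FPKM, the protease C1s at 220 ± 11.9 FPKM and C1qb as above. The central component C3 varied most, at 7.76, 18.2 and 7.88 FPKM, and was highest in replicate 2. Class II antigen presentation held 0.267% ± 0.0312, led by the invariant chain Cd74 at 400, 350 and 454 FPKM, the protease Ctss at 197 ± 28.3 FPKM and RT1-Da, a class II chain, at 90.4, 69.4 and 99.0 FPKM. RT1-Db1, its beta chain and the most variable member, was at 18.8, 14.7 and 33.1 FPKM. Both RT1 chains were lowest in replicate 2 and highest in replicate 3, but RT1 genes have near-identical and polymorphic copies among which reads can be split, so these levels are uncertain.

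Other leukocyte lists were small. The T and NK list held 0.0230% ± 0.00247, led by Il7r, the interleukin 7 receptor, at 31.5 ± 4.01 FPKM, Cd8a, a co-receptor of cytotoxic T cells, at 24.9, 8.59 and 16.5 FPKM and Cd2, an adhesion protein, at 5.51 ± 0.311 FPKM. Cd8a was the most variable of the list, while its partner chain Cd8b was at 3.94, 2.79 and 3.65 FPKM and the invariant chains Cd3d and Cd3g at 1.19 ± 0.208 and 5.07 ± 1.32 FPKM. Nkg7, a granule protein of cytotoxic cells, was at 3.70 ± 0.645 FPKM. In the B and plasma list, Xbp1, a secretory stress factor that many cells make, was at 73.4 ± 6.84 FPKM, and Jchain, the joining chain of antibodies, at 16.04, 31.2 and 30.7 FPKM. Jchain was lowest in replicate 1 and the most variable member, and the third member, Cd22, was at 2.96 ± 0.339 FPKM. The B cell receptor partner Cd79a was at 2.43 ± 0.578 FPKM.

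Neutrophil genes held 0.0136% ± 0.00336, led by the calprotectin chains S100a9 at 17.7, 10.1 and 13.98 FPKM and S100a8 at 9.90 ± 1.26 FPKM and by the lectin Fcnb at 6.77 ± 0.427 FPKM. Csf3r, the receptor for their growth factor, was at 9.05, 6.59 and 4.24 FPKM and Lcn2, lipocalin 2 and the most variable member, at 9.02, 4.24 and 3.43 FPKM. Both were highest in replicate 1. Mast cell genes held 0.00658% ± 0.000318, led by Kit, a receptor that other cells carry as well, at 10.4, 14.2 and 10.6 FPKM and by the proteases Cpa3 and Cma1 at 3.85 ± 1.17 and 3.36 ± 1.34 FPKM. Kit was the only mast cell member at a mean of 5 FPKM or more, so spread is not ranked in this list. Ms4a2 and Tpsb2 were at 0.425 ± 0.173 and 0.955 ± 0.358 FPKM.

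Pericyte and smooth muscle genes held a larger share than endothelial ones, with Acta2, which is also in the fibroblast list, among the highest. The pericyte and smooth muscle list held 0.331% ± 0.0498, led by Tagln, transgelin, at 320, 266 and 297 FPKM, Acta2 at 311, 236 and 260 FPKM and Rgs5 at 188, 115 and 160 FPKM. All 3 were highest in replicate 1 and lowest in replicate 2. Abcc9 and Kcnj8, the subunits of a potassium channel of pericytes, were at 12.6, 6.63 and 9.46 FPKM and at 10.8, 5.79 and 8.32 FPKM, and Abcc9 was the most variable member. Myh11 and Cnn1, of contractile smooth muscle, were at 17.8 ± 3.66 and 6.27 ± 0.589 FPKM. The endothelial list held 0.140% ± 0.0187, with Eng, endoglin, at 64.1 ± 5.88 FPKM, the water channel Aqp1 at 57.0 ± 9.63 FPKM and Plvap, of fenestrated vessels, at 52.4 ± 3.49 FPKM. The clotting factor Vwf and the receptor Kdr were at 12.8 ± 1.52 and 10.7 ± 2.19 FPKM. Of those at a mean of 5 FPKM or more, Sox17, a transcription factor of arteries, varied most at 9.33, 5.31 and 7.44 FPKM. It was again highest in replicate 1 and lowest in replicate 2. Prox1, which specifies lymphatic endothelium, was at 0.179 ± 0.0768 FPKM.

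Fat genes held 0.234% ± 0.0422, mostly from Fabp4, a lipid-binding protein, at 326, 329 and 452 FPKM and Lpl, lipoprotein lipase, at 247, 308 and 398 FPKM, which macrophages also make. Cfd, the protease adipsin, was at 110 ± 24.4 FPKM. The droplet proteins Plin1 and Cidec, which are restricted more to fat cells, were at 4.84 ± 0.930 and 1.59 ± 0.183 FPKM, and Pparg, the factor of fat cell formation and the most variable member, was at 6.90, 4.49 and 8.38 FPKM. Red blood cell genes held 0.140%, 0.0753% and 0.101%, with the globins Hba-a2, Hbb-b1 and Hba-a3 at 338 ± 96.7, 24.7 ± 8.95 and 18.3 ± 2.76 FPKM. Alas2, the haem synthesis enzyme of red cell precursors, was at 9.83, 4.42 and 5.79 FPKM. It varied most of those at a mean of 5 FPKM or more. The band 3 anion exchanger Slc4a1 was at 0.573 ± 0.272 FPKM. Globin genes have near-identical copies, so their split is uncertain. Skin epithelium genes held 0.00168% ± 0.000351, led by Cdh1, Epcam and Krt10 at 2.33 ± 0.689, 1.95 ± 0.671 and 1.35 ± 0.0501 FPKM.

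Secreted growth factors and neurotrophins held 0.466% ± 0.0275, with 55 of 66 measured members at 1 FPKM or more. The highest was Grn, progranulin, at 333, 363 and 423 FPKM, and Gas6, a ligand of the receptors that take up dead cells, followed at 158 ± 14.98 FPKM. Tgfb1, transforming growth factor beta, was at 126, 158 and 137 FPKM. Grn was highest in replicate 3 and Tgfb1 in replicate 2. The matricellular Ccn2 and Ccn3 were at 134 ± 5.17 and 96.8 ± 27.3 FPKM, pleiotrophin (Ptn), which promotes neurite growth, at 77.4 ± 13.3 FPKM, the procollagen protease Bmp1 at 66.7 ± 9.14 FPKM and Ccn1 at 63.6 ± 18.03 FPKM. The last of the 10 highest were Igf1, insulin-like growth factor, at 52.6 ± 10.9 FPKM and Csf1, the macrophage growth factor, at 48.6 ± 7.95 FPKM. Of those at a mean of 5 FPKM or more, Fgf5 varied most at 39.7, 19.1 and 29.99 FPKM and was highest in replicate 1. Among factors with a known action on axons, Cntf was at 5.64 ± 1.19, Lif at 5.78 ± 0.407, Artn at 3.25 ± 0.138 and Nrg1 at 1.62 ± 0.619 FPKM, each far under Ptn.

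Chemokines and cytokines held 1.31% ± 0.298, of which Spp1 was the greater part. Behind it came Il1rn, the interleukin 1 receptor antagonist, at 244, 370 and 285 FPKM, Pf4, platelet factor 4, at 111, 122 and 135 FPKM, Cxcl13, which attracts B cells, at 80.9, 137 and 126 FPKM and Il33, an alarm cytokine, at 95.5, 113 and 57.8 FPKM. Il1rn and Il33 were highest in replicate 2, and Pf4 in replicate 3. Il1b, the cytokine whose receptor Il1rn blocks, was at 14.8, 10.9 and 11.3 FPKM, so that Il1rn was 16.5, 34.0 and 25.3 times as high, a pair chosen after its values were seen. Cxcl2, which attracts neutrophils, varied most at 17.2, 7.13 and 5.21 FPKM and was highest in replicate 1. The guidance cues held 0.0550% ± 0.00502, with 20 of 31 measured members at 1 FPKM or more. Slit3, a ligand of Robo receptors, was at 42.6 ± 5.65 FPKM, the semaphorin Sema3c at 41.7 ± 2.98 FPKM and the netrin relative Ntng2 at 20.1 ± 2.95 FPKM. Reln, reelin, and Sema3f followed at 12.1 ± 1.38 and 10.5 ± 1.003 FPKM, and Ntn4, netrin 4, varied most at 14.5, 9.81 and 6.20 FPKM. Sema3a, which repels axons, was at 0.539 ± 0.152 FPKM.

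**Figure D3:**
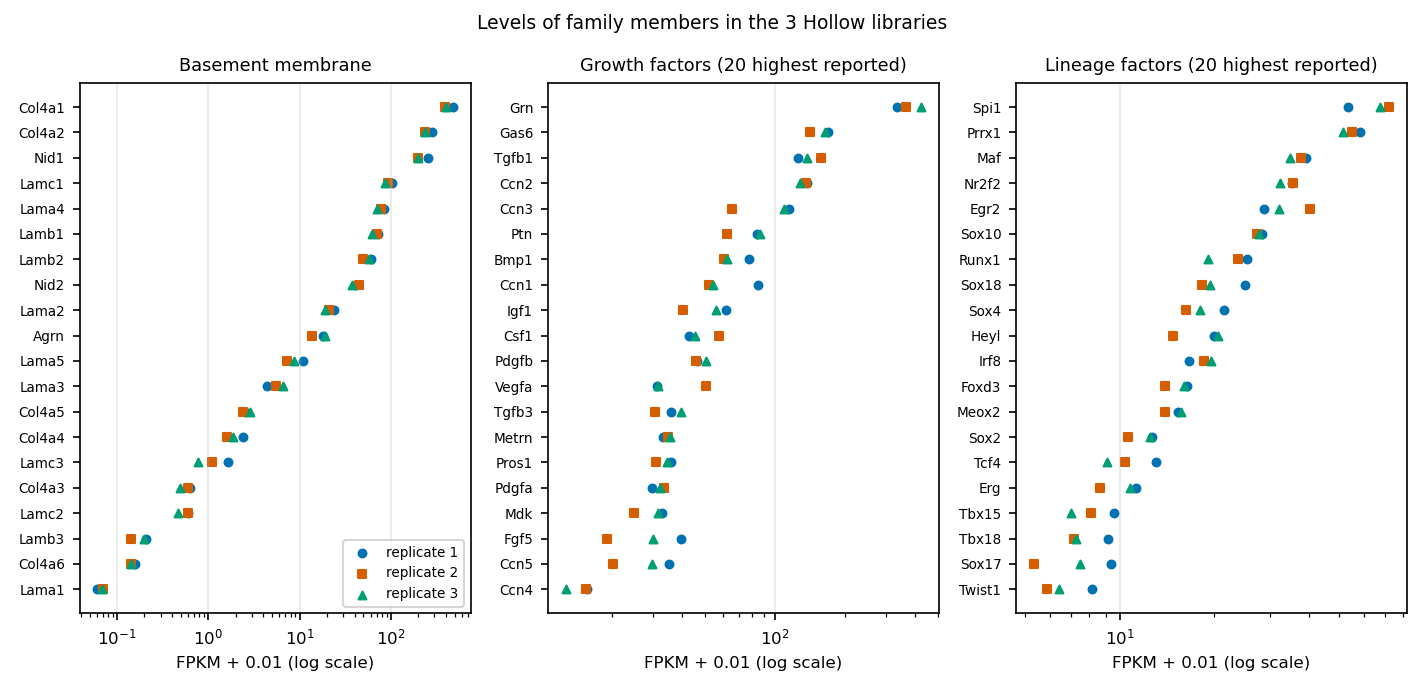
Levels of the basement membrane members and of the 20 highest growth factors and 20 highest lineage transcription factors among those reported, in the 3 Hollow libraries, as FPKM + 0.01 on log axes, with 1 point per library. Col4a1, Grn and Spi1 lead their panels, and the spread between libraries is small beside the distance from the highest to the lowest member of a panel.

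Of 1411 genes that the deposited table assigns to a transcription factor family, 937 were at a mean of 1 FPKM or more, and together they held 2.81% ± 0.0851. The 10 highest were mostly RNA- and DNA-binding proteins of general use, namely Ybx1 at 210 ± 27.0 FPKM, Nme2 at 173 ± 1.21, Ybx3 at 147 ± 12.0, Cnbp at 144 ± 4.81, Atf4 at 124 ± 5.14, Litaf at 111 ± 9.49, Zfp36l1 at 110 ± 10.2, Atf3 at 107 ± 15.8, Jund at 104 ± 7.67 and an unnamed gene of the cold shock domain family, ENSRNOG00000030807, at 94.98 ± 13.4 FPKM. Families differed in how much of them was present. At 1 FPKM or more were 374 of 519 C2H2 zinc finger genes, 40 of 50 bZIP genes, 52 of 156 homeobox genes and 2 of 13 Pou genes. Among the injury response and immediate early genes, Atf4, Atf3 and Jund led, all 26 measured members were at 1 FPKM or more, and Fos, an immediate early gene, varied most at 71.2, 36.2 and 39.9 FPKM, highest in replicate 1.

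Lineage factors at a mean of 1 FPKM or more numbered 32 of 41 measured. Spi1, the myeloid factor PU.1, was at 53.1, 72.1 and 67.2 FPKM and Prrx1, of limb mesenchyme and fibroblasts, at 58.4, 54.7 and 51.3 FPKM. Spi1 was lowest in replicate 1 and Prrx1 highest there. Egr2, the factor that turns on myelin genes, was at 28.8, 40.4 and 32.1 FPKM and highest in replicate 2, and Pparg was again the most variable member. Of 32 measured Hox and limb position factors, 12 were at 1 FPKM or more, led by Hoxd8, Hoxa10 and Hoxc9 at 7.49 ± 0.359, 5.82 ± 1.06 and 4.65 ± 1.001 FPKM. Of the 2 at a mean of 5 FPKM or more, Hoxa10 was the more variable.

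The lncRNA class held 1.28% ± 0.0310, with 470 of 2020 genes at a mean of 1 FPKM or more and a median over all 2020 of 0.143 FPKM. The libraries were made from transcripts with poly(A) tails, so lncRNA without a tail are largely unmeasured. The highest was ENSRNOG00000064136 (chromosome 3, 11354747 to 11357054, plus strand) at 286, 273 and 252 FPKM, followed by ENSRNOG00000068880 (chromosome 5, 111671879 to 111673171, minus strand) at 197, 337 and 216 FPKM. The latter was highest in replicate 2. ENSRNOG00000064142 on chromosome 11 was at 125 ± 24.2 FPKM, ENSRNOG00000016410 on chromosome 17 at 123 ± 10.9 FPKM and a gene on chromosome 3 listed as lncRNA under the name Actg1 at 108 ± 7.95 FPKM. The last bears the name of the actin gene on chromosome 10, so that reads of a near-identical copy may be in it. The sources used here pair no name with the other 4 identifiers. Of 197 lncRNA at a mean of 5 FPKM or more, 2 were variable by the rule below, against 0.911% of all genes at that mean, a share near the background. H19, an imprinted transcript known to be non-coding but listed in the table as protein coding (chromosome 1, 197730698 to 197733134), was at 175, 67.7 and 62.2 FPKM, highest in replicate 1.

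Most genes were steady across the libraries. Among 8894 genes at a mean of 5 FPKM or more, the median coefficient of variation (CV), the SD divided by the mean, was 0.0745. A gene was called variable at a CV above 0.5, which 81 genes met, or 0.911% of the 8894. Of these 81, 31 were highest in replicate 1, 16 in replicate 2 and 34 in replicate 3, against 31.7%, 29.0% and 39.3% of the 8894. The share for replicate 3, 42.0%, is near that background. The 5 named genes of lowest CV were Arl1, a GTPase of the Golgi, at 57.7, 57.9 and 57.8 FPKM, and Tcn2, Cc2d1a, Fam172a and RGD1305110, with CVs of 0.000931 to 0.00176 over the 5.

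**Figure D4:**
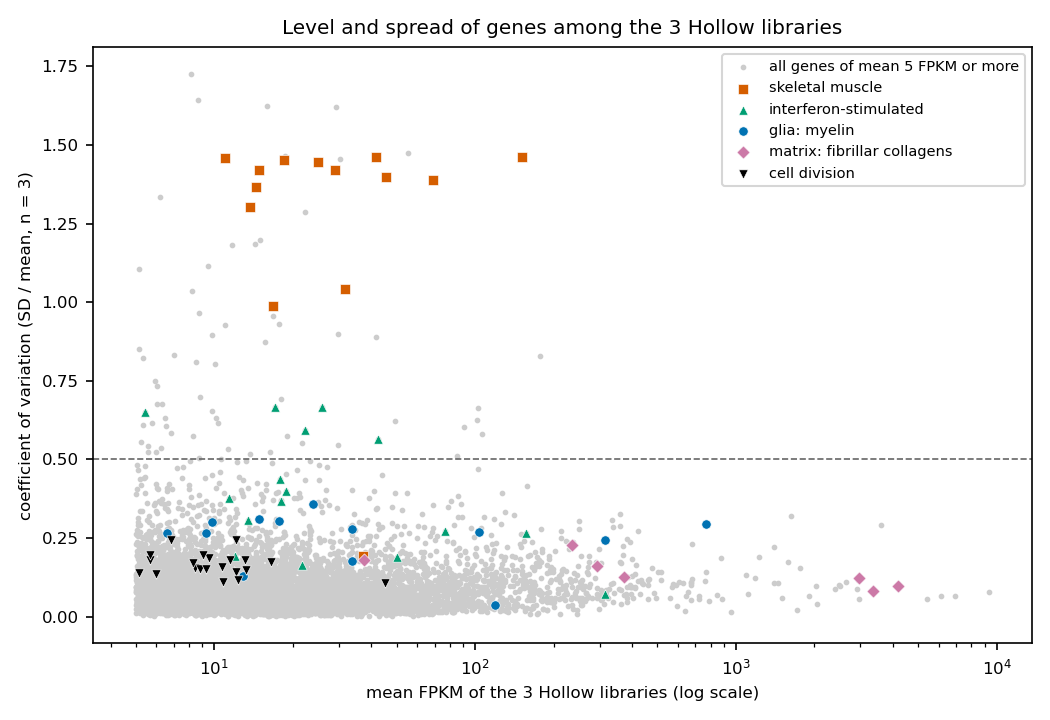
Coefficient of variation among the 3 Hollow libraries against mean FPKM on a log axis, 1 point per gene at a mean of 5 FPKM or more, with a dashed line at 0.5. The skeletal muscle points above the line lie between 0.987 and 1.46, 5 interferon-stimulated genes lie just above the line, and myelin, collagen and cell division genes lie under it.

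Of the 35 lists, the skeletal muscle one held the most variable genes, 13 of the 22 that are in any list. Acta1 was at 408, 27.8 and 19.8 FPKM in replicates 1, 2 and 3, Mylpf, a light chain of fast myosin, at 179, 14.8 and 12.6 FPKM, and Tnnc2 at 119, 8.63 and 8.90 FPKM. Replicate 1 was far above the other libraries, which lay close together. The muscle creatine kinase Ckm, the most variable of the list at a mean of 5 FPKM or more, was at 112, 7.18 and 5.79 FPKM. The fast troponin Tnnt3 was at 70.0, 12.8 and 12.6 FPKM. All 21 members at a mean of 1 FPKM or more were highest in replicate 1, against 35.1% of all 13055 genes at that mean, and 13 of 14 at a mean of 5 FPKM or more were variable. Both filters use a mean that includes replicate 1. Several of the 14 were under 5 FPKM in replicates 2 and 3 and passed only through replicate 1, so these counts are partly fixed by the filter. The list's share of the summed FPKM was 0.372%, 0.0383% and 0.0338%, and without replicate 1 none of its members was variable. Genes of fast fibres led it, while Myh7 and Myl2, of slow and cardiac muscle, were at 0.00763 ± 0.00765 and 0.00540 ± 0.00935 FPKM. None of 9 measured muscle progenitor genes reached a mean of 1 FPKM, and the highest, Myf6, was at 1.12, 0.271 and 0.0504 FPKM.

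The genes of highest CV included several without a symbol, and 17 of the 81 variable genes have none. Of the 6 highest in CV, none is in the muscle list and 5 have no symbol. The ones ranked 2 to 5, on chromosomes 4 and 6, were all highest in replicate 3, such as ENSRNOG00000070816 on chromosome 6 at 0.516, 16.2 and 149 FPKM. The one ranked 6, ENSRNOG00000006471 on chromosome 7, was highest in replicate 1 at 49.98, 2.45 and 3.32 FPKM. Among the 15 of highest CV with a symbol were 11 members of the muscle list, which beyond those named above are Mybpc2, Tnni2, Myh4, Myl1, Actn3, Casq1 and Pygm, for myosin-binding, troponin, myosin, actinin, calcium-storing and glycogen-splitting proteins. Of the other 4, AABR07005775.1, which the table describes as a calcium pump of the sarcoplasmic reticulum, was at 81.5, 6.40 and 3.34 FPKM, and Ankrd23, an ankyrin repeat protein of muscle, at 15.8, 1.79 and 1.07 FPKM. These were highest in replicate 1 as well. RGD1562667, described as similar to a leukocyte immunoglobulin-like receptor, had the highest CV, 1.72, at 24.4, 0 and 0.0626 FPKM, from 386, 0 and 1 counts, where a count of 0 allows up to 0.225 FPKM. Fam111a, a protease of DNA replication, was at 55.2, 6.66 and 4.78 FPKM. Outside the rule for named genes, and chosen after its values were seen, RGD1359290, described as holding a ribosomal L22 domain, was at 8.52, 250 and 274 FPKM, the reverse pattern. Such near all-or-none levels in receptor families and in copies of ribosomal genes can be split among near-identical sequences by the counting, so they are uncertain.

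Some immunoglobulin genes outside the lists, and some genes without a description, were also variable and highest in replicate 3. They were chosen after their values were seen. Another undescribed gene on chromosome 6, ENSRNOG00000069868, went the other way at 27.5, 6.02 and 1.65 FPKM. Ighg1, a constant region of antibody heavy chains, was at 4.53, 2.90 and 10.6 FPKM. The gene listed as Ighm, which the table describes as the epsilon constant region, was at 9.83, 13.1 and 25.99 FPKM, and ENSRNOG00000065917, which lies inside its span on chromosome 6, at 5.55, 40.03 and 79.7 FPKM. AABR07060872.1, a gene on chromosome 4 with no description, was at 43.4, 82.2 and 130 FPKM, again highest in replicate 3. Jchain, the joining chain, was highest in replicate 2 and nearly level with it in replicate 3. Overlapping and near-identical antibody genes can share reads, so these levels are uncertain.

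The list with the next most variable genes was the interferon-stimulated one, with replicate 2 low. Ifitm3, Ifi27 and Bst2, antiviral membrane proteins and the highest members, were at 304, 301 and 342 FPKM, 147, 121 and 202 FPKM, and 65.8, 63.7 and 101 FPKM. All 3 were highest in replicate 3. Irf7 was at 33.3, 24.3 and 69.5 FPKM and Mx1 at 22.9, 10.4 and 44.6 FPKM, in the same order, whereas Ifit3 was at 27.2, 4.72 and 19.4 FPKM and Rsad2 at 8.31, 1.49 and 6.46 FPKM, highest in replicate 1. Of 18 members at a mean of 1 FPKM or more, 17 were lowest in replicate 2, against 36.7% of all genes, and 15 were highest in replicate 3, against 36.9%. The variable members were 5 of 16, namely Ifit3, Mx1, Rsad2, Mx2 and Irf7. That count was 1 without replicate 2, 2 without replicate 3 and 6 without replicate 1. The windows of Ifit3, Rsad2 and Irf7 above hold the response element, and that of Mx1 does not. These genes were shown because they are variable members, so their place among the 5 was fixed by that choice.

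Replicate 2 stood out for cell division, glycolysis and myelin. All 24 cell division genes and 19 of 20 glycolysis and hypoxia genes at a mean of 1 FPKM or more were highest there, as were 16 of 17 myelin genes, against 28.0% of all genes. Among the cell division genes, the replication clamp Pcna was at 40.8, 50.3 and 44.6 FPKM, the kinase Cdk1 at 15.6, 19.6 and 14.1 FPKM and the helicase subunit Mcm2 at 13.0, 15.3 and 11.4 FPKM. None of these 24 was variable, and the most variable, the cyclin Ccnb2, was at 6.30, 8.68 and 5.48 FPKM. The glycolytic enzymes Eno1, Pkm and Gapdh were at 304, 487 and 359 FPKM, 238, 328 and 256 FPKM, and 252, 312 and 247 FPKM. Egln3, an oxygen sensor that low oxygen induces, varied most at 6.996, 18.7 and 10.8 FPKM, and Vegfa, the vessel growth factor, was at 31.1, 50.7 and 31.6 FPKM. The glycolysis list held 0.544%, 0.782% and 0.594%, so replicate 2 lay above both others, while the endothelial list was lowest there, at 0.161%, 0.124% and 0.136%.

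Replicate 1 was the highest library for 72 of 107 matrix members and 30 of 41 vessel members, against 35.1% of all genes, and replicate 3 for 48 of 90 immune members, against 36.9%. The immune lists differed in this. Replicate 3 was highest for 14 of 17 class II and 9 of 14 T and NK members, but for 7 of 22 macrophage and 2 of 8 neutrophil members. The class II list includes the RT1 genes called uncertain above. The 3 libraries also drew differently on long genes. Over 13055 genes, which are not independent, the Spearman correlation of length with deviation from the 3-library mean was 0.218 in replicate 1, -0.0652 in replicate 2 and -0.172 in replicate 3. With the genes split by length into 4 equal bins, replicate 1 was highest for 49.0% of the longest bin and 24.4% of the shortest. Matrix and vessel members had median lengths of 4250 and 3819 bases, and all genes 2958 bases. Each library's length trend was then removed, a step added after the data were seen. The counts became 63 of 107 for matrix and 28 of 41 for vessel in replicate 1. The immune count in replicate 3 became 43 of 90. The share of all genes highest in each replicate was not computed after that step, so these counts have no background beside them. The skeletal muscle list was highest in replicate 1 too, at the shares given above, and its part in the matrix and vessel counts was not tested.

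**Figure D5:**
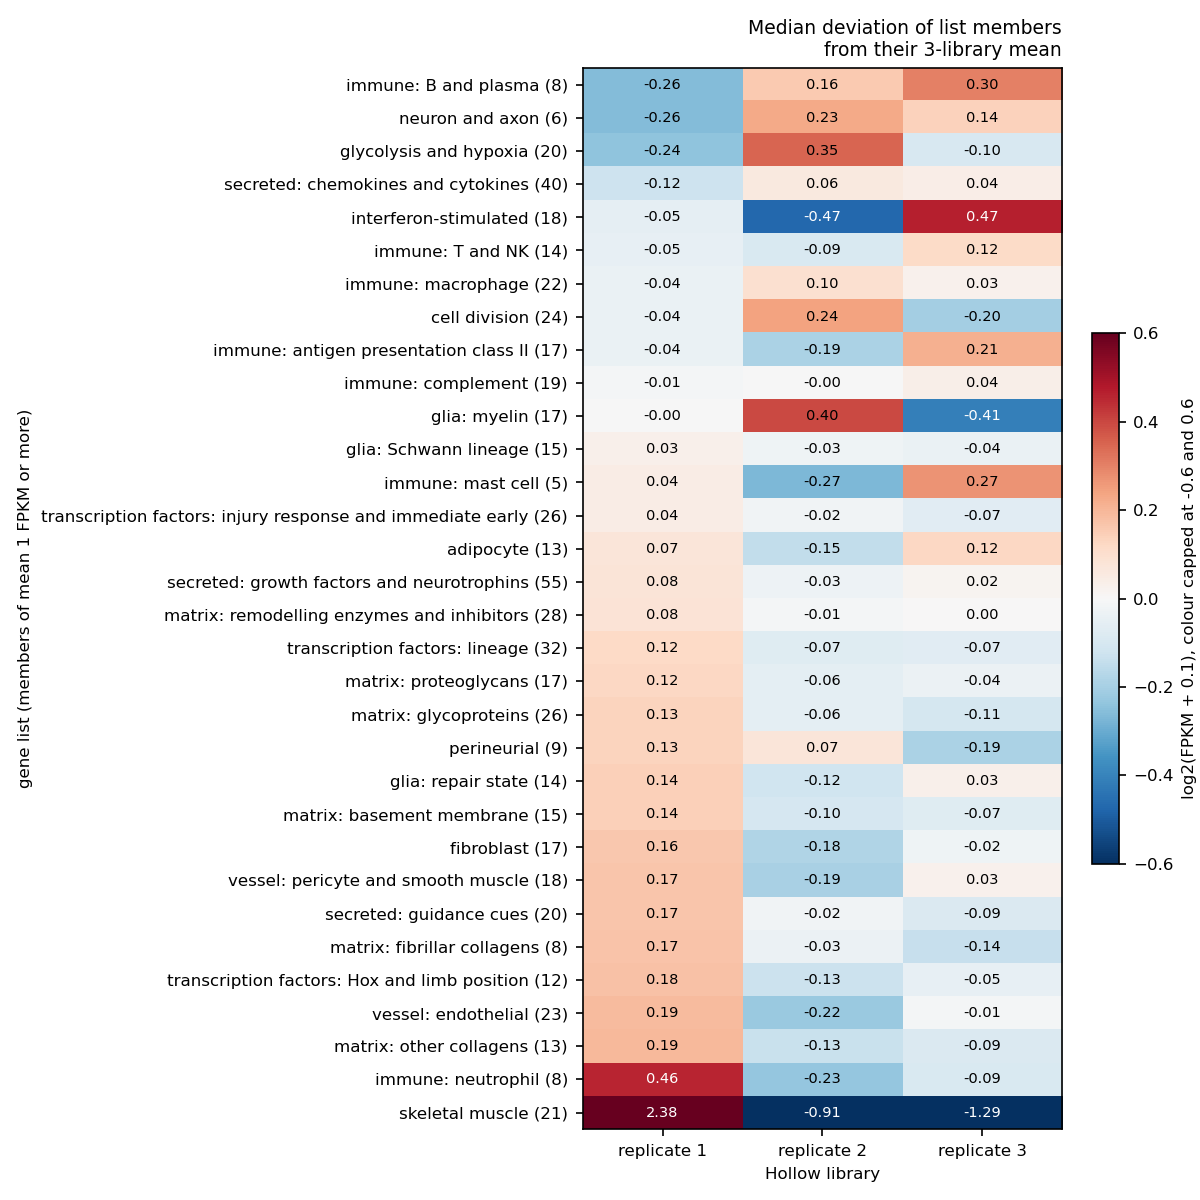
Median deviation of list members from their own 3-library mean, on the scale of log2(FPKM + 0.1), for 32 lists with at least 5 members at a mean of 1 FPKM or more, with the number of members in brackets and the colour capped at 0.6 either way. Skeletal muscle is at 2.38 in replicate 1, myelin at 0.40 in replicate 2 and -0.41 in replicate 3, and interferon-stimulated genes at -0.47 in replicate 2 and 0.47 in replicate 3.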

How the data were processed

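RNA from tissue inside the conduits was captured by its poly(A) tail and sequenced as stranded paired reads, per the labels' protocols. The authors deposited 1 table of 21486 genes that holds whole-number counts and FPKM per library, per the file headers. The deposited FPKM values are the counts over a gene length and a library total, and the implied length differed by at most 1.00073 times between libraries. FPKM relates a gene to the library's other genes, so a very abundant gene lowers the share of the rest. The aligner, counting program and build behind the table are, in the sources used here, not given. The deposited short sheets of genes were not used. Table coordinates are gene spans as listed, and promoter coordinates belong to GRCr8, so neither should be compared with the other.

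From the FPKM of the 3 Hollow libraries, the mean, SD and CV of each gene and the share of the summed FPKM per gene list were computed with Python 3.11.15, numpy 2.4.6 and pandas 2.3.3. The 35 lists hold 747 genes, of which 702 were measured and 45 were not analysed here. The members and lists were chosen with earlier results of these data known. Genes are named by a rule set out with the lists. It takes the 10 highest genes, the 3 highest and the most variable member (at a mean of 5 FPKM or more) of each list, the defining markers, the 10 highest transcription factors and growth factors, the 5 highest cytokines, guidance cues and lncRNA, the 15 genes of highest and 5 of lowest CV with a symbol, and the muscle promoters. Some genes that the rule names are not reported here, though sums and counts over lists include them. Further members, chosen after their values were seen, show the order within a family. With 1 group of 3 libraries there is no test between groups and no p-value. Counts enter the pairwise chi-square check, and edgeR 4.0.16 and DESeq2 1.42.0 in R 4.3.3 supplied size factors and gene-wise spread as alternatives. The call of variable genes was tried on simulated data whose other genes spread less than the common biological CV of 0.161 that edgeR gave here. The rate of false calls at that spread was not tested. Reads carry no molecular identifiers, so the limit that a count of 0 allows covers counting error only.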

Additional observations from a re-analysis of the deposited data

How the results depend on the processing

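No paired analysis was possible because all values come from 1 group of 3 libraries and from no test between groups. With each replicate left out in turn, genes at 1 FPKM or more in every library numbered 12645 to 12704 and variable genes 76 to 91. Skeletal muscle members among the variable genes were then 0 to 14, with 0 without Hollow replicate 1, and interferon-stimulated members 1 to 6, with 1 without Hollow replicate 2 and 2 without Hollow replicate 3. Taken as a share of counts, which weights long genes, the 10 highest genes held 9.60%, matrix 13.9%, immune 2.70% and secreted factors 1.33%. Glia, vessel and transcription factor shares stayed within 1 SD of the reported ones under that choice, and single lists moved by more than 1 SD in 21 of 35 cases, 11 higher and 10 lower. Variable genes numbered 296 with a mean of at least 1 FPKM, 4351 with no filter on the mean and 34 with edgeR's tagwise biological CV, against 81. edgeR and DESeq2 size factors gave 81 variable genes each. Counts were also taken of the myelin, cell division, glycolysis, matrix, vessel, immune and interferon members highest or lowest in a library. They kept within 1.5 times under edgeR and DESeq2 factors and with the length trend removed. That limit is wide and does not show whether a count stays above the share of all genes. With the length trend removed, that share was not computed. Low-level genes rest on few counts, as for Elane with 6, 3 and 3, so their order is not firm.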

Other observations

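Pathway groups in the deposited annotation, looked at after the values were seen, add the following levels. The 122 lysosome genes held 3.40%, 3.37% and 3.94% of the summed FPKM, with 116 at a mean of 1 FPKM or more and 72 of these highest in replicate 3, against 36.9% of all genes. Among them, the protease Ctsd was at 573, 600 and 855 FPKM and the acid lipase Lipa at 152, 164 and 225 FPKM. Both were highest in replicate 3, as were Psap, a lysosomal activator protein, at 1402, 1443 and 1894 FPKM and Gpnmb. The protease Ctsl did not follow that order, at 492, 399 and 489 FPKM. The lean to replicate 3 was not limited to lysosome genes. At the same mean, 88 of 136 ribosome and 78 of 113 oxidative phosphorylation genes were highest there, but only 36 of 161 focal adhesion genes. Replicate 3 was also highest for 44.3% of genes in the shortest length bin and 27.2% in the longest. Whether the lysosome count holds with the length trend removed was not tested.

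Some genes of iron and haem handling, chosen after their values were seen, had the following levels. Beside Fth1, the ferritin light chain Ftl1 was at 1454 ± 154 FPKM, and Hmox1, which breaks down haem, at 453, 379 and 399 FPKM. Tfrc, the receptor for iron uptake, was at 12.3 FPKM on average. Oxidative phosphorylation genes, 123 in number and including the mitochondrially encoded ones, held 12.9% ± 0.599. Lipid carriers included Apod, known from nerve fibroblasts and Schwann cells, at 1224, 1119 and 936 FPKM. Several variable genes outside the lists had high levels. Fcrl2, an Fc receptor-like protein, was at 153, 54.5 and 63.6 FPKM, and the metallothionein Mt3 at 71.8, 69.4 and 177 FPKM. Ifi27l2b, an interferon-induced protein, was at 31.8, 31.4 and 84.9 FPKM. Acod1, the enzyme that makes itaconate in activated macrophages, was at 3.64, 9.03 and 3.24 FPKM, highest in replicate 2.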
